A study of Mus musculus with 12 samples.

Results

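The genes described here are 39 mouse genes of the unfolded protein response and the amino acid stress response. They were listed by function and not by any measured value, though with earlier results of these data known. A gene was measured where the platform annotation gave a probe set exactly 1 gene symbol, and where it had several such probe sets the brightest on average was taken. This gave 38 of the 39 genes, out of 19938 genes measured in all. Pycr1, an enzyme of proline synthesis, was not analysed here. By role, the 38 comprise 3 stress sensors, 4 stress transcription factors, 4 feedback regulators, 12 chaperones and foldases of the endoplasmic reticulum, 4 genes of the degradation pathway of that compartment, 7 enzymes of amino acid and one-carbon synthesis, and 4 amino acid transporters.

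Expression was measured on 12 arrays of total RNA from bone marrow-derived mast cells (BMMCs), mast cells grown in culture from marrow progenitors. The wild type samples came from C57BL/6 mice. The ACKR2-deficient samples came from ACKR2-/- mice, which lack the atypical chemokine receptor 2, a receptor that binds and removes inflammatory chemokines, and whose strain background the labels do not give. The 4 groups were wild type and ACKR2-/- cells after 2 and after 10 weeks of culture, with 3 arrays each. All came from marrow of female mice aged 4 to 6 weeks and were grown in stem cell factor (12.5 ng/ml) plus interleukin 3 (10 ng/ml). The protocols mention a CD117 column purification of 2-week cells for some experiments, without saying which arrays it concerns. Replicates are labelled as biological, with no animal or culture named, so p-values measure the spread between these samples. All values are deposited log2 signals, and a difference of 1 is a change of signal by a factor of 2.

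The array labelled wild type, 2 weeks, replicate 3 and all 3 arrays labelled ACKR2-/-, 2 weeks had far lower signals of mast cell transcripts than the other 8. They are called arrays without mast cell transcripts below, although absence was not tested. The average log2 signal of 12 mast cell genes was 6.59 to 6.74 on these 4 arrays and 12.13 to 12.84 on the other 8. Fcer1a, the ligand-binding chain of the IgE receptor, was at 4.83 to 5.47 on the 4 arrays, and Kit, the stem cell factor receptor, at 7.51 to 9.18. Kit thus lay above the array median, 7.89 to 7.90, on all of them but ACKR2-/- array 3. B cell genes (8 in the list) averaged 9.85 to 12.81 on the 4 arrays and at most 6.89 on the rest, and T and NK cell genes (9 in the list) averaged 8.67 to 11.66 against at most 7.06. The 4 arrays were not alike in the T and NK cell genes. On ACKR2-/- array 3, the lowest of them, Cd3d was at 6.80, Cd3g at 7.95 and Cd8a at 8.03. The other 3 had Cd3d at 11.62 to 11.73, Cd3g at 13.19 to 13.25 and Cd8a at 12.87 to 12.89. Cd2 was at 11.62 on ACKR2-/- array 3, and Ncr1, at 9.26, was higher there than on the other 3. The same 4 arrays had the Y-linked gene Kdm5d at 10.06 to 10.51 and Xist at 5.77 to 6.23, against at most 6.42 for Kdm5d and at least 13.00 for Xist on the other 8, although the labels name female mice. Across all genes, which are not independent replicates, that wild type array correlated at 0.996 and 0.997 with ACKR2-/- arrays 1 and 2 of 2 weeks and at 0.890 and 0.894 with arrays 1 and 2 of its own group. Of the 38 genes, 33 (86.8%) were nearer on wild type array 3 of 2 weeks to the mean of the arrays labelled ACKR2-/- than to the other 2 arrays of its own group, as were 78.4% of all genes. Ackr2 itself was no lower in the arrays labelled ACKR2-/-, at 7.79 to 9.43, than in those labelled wild type, at 7.88 to 8.38, so it does not check the genotype labels. Groups are named below as labelled. In these bulk samples, fewer cells of a type and less RNA per cell cannot be told apart.

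The unfolded protein response adjusts the folding capacity of the endoplasmic reticulum to the load of secreted and membrane proteins. It has 3 sensors: IRE1 (gene Ern1), which splices Xbp1 mRNA, PERK (Eif2ak3), which phosphorylates the translation factor eIF2alpha, and ATF6 (Atf6), which is cut to release a transcription factor. Phosphorylated eIF2alpha, which also follows amino acid shortage, favours translation of ATF4, and ATF4 turns on genes of amino acid synthesis, amino acid import and stress feedback. Mast cells store large amounts of secretory protein in granules, and plasma cells are the textbook case of a cell type that depends on this response.

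**Figure D1:**
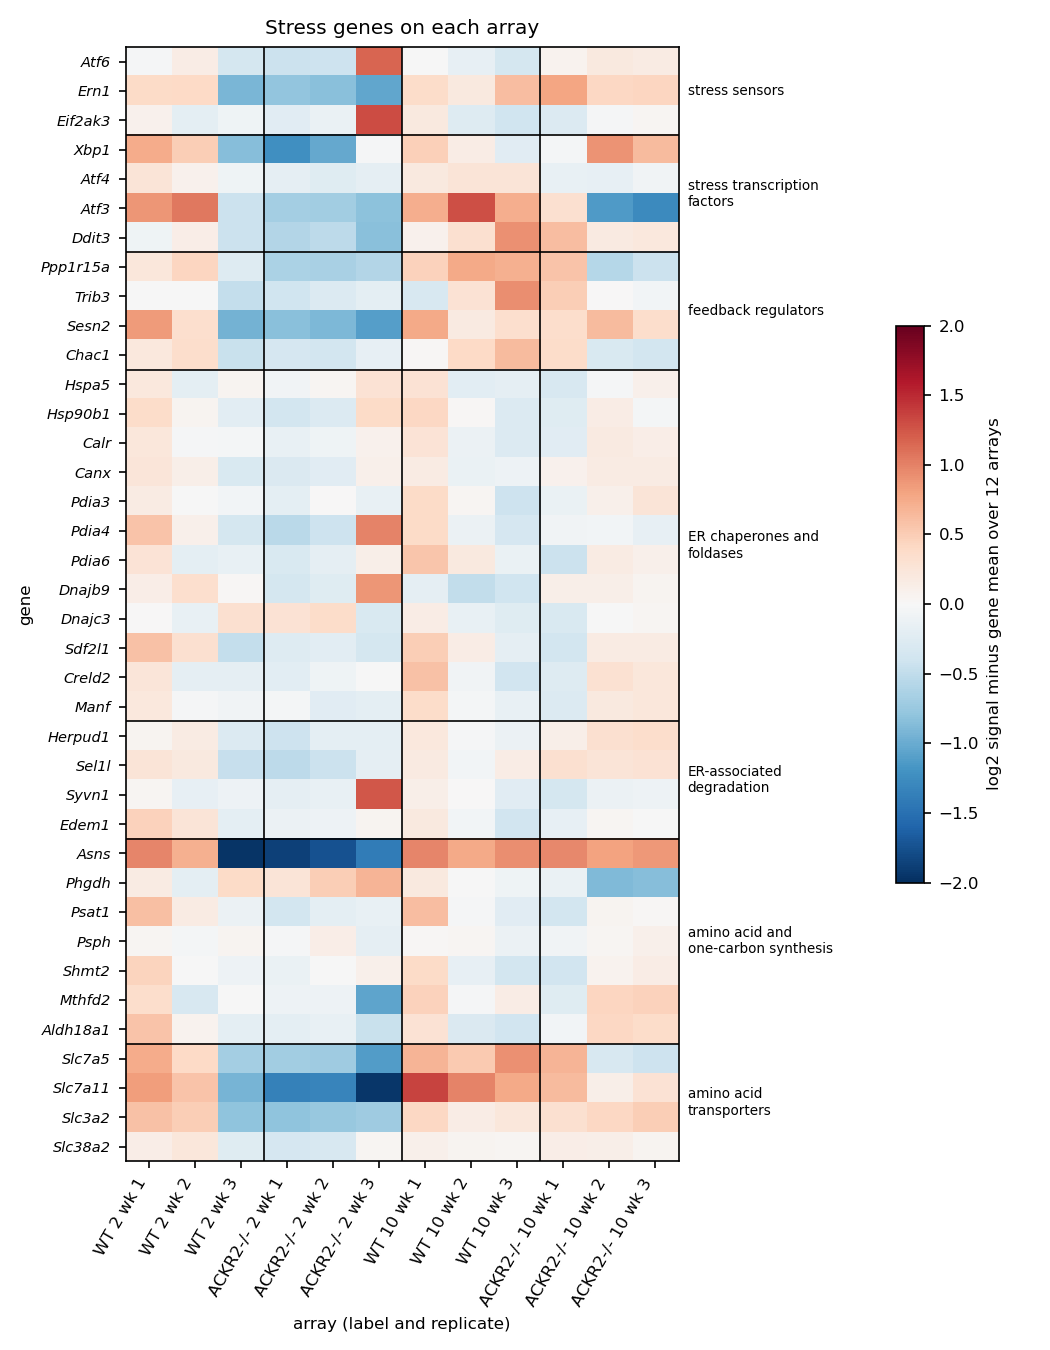
Log2 signal of the 38 genes on each of the 12 arrays, drawn as the difference from the gene's mean over all arrays, with genes ordered by role and arrays by group. The 4 arrays without mast cell transcripts are low for Asns, Slc7a11, Slc3a2, Sesn2 and Ern1, and array 3 labelled ACKR2-/-, 2 weeks is high for Atf6, Eif2ak3, Pdia4, Dnajb9 and Syvn1.

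The span from the lowest to the highest array was 3.29 for the cystine transporter gene Slc7a11, 2.93 for Asns and 2.56 for Atf3. It was 0.30 for Psph, the enzyme of the last step of serine synthesis, and between 0.54 and 0.55 for the lectin chaperones Canx and Calr. The map of all 38 genes by array shows that the largest steps fall at the 4 arrays without mast cell transcripts and, for a smaller set, within the ACKR2-/- arrays of 10 weeks.

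The enzyme gene Asns and the transporter genes come first. Asns, which makes asparagine, had log2 signals of 10.57, 10.31 and 7.64 on the wild type arrays of 2 weeks and of 7.74, 7.85 and 8.20 on the ACKR2-/- arrays of 2 weeks. At 10 weeks it was at 10.58, 10.36 and 10.52 in wild type and at 10.56, 10.40 and 10.47 in ACKR2-/-. All 8 arrays with mast cell transcripts thus lay within 10.31 to 10.58 and the other 4 within 7.64 to 8.20, with wild type array 3 of 2 weeks the lowest of all. From 2 to 10 weeks in ACKR2-/- the rise of Asns was 2.55 ± 0.59 (SE), or 5.84-fold, with a Benjamini-Hochberg adjusted p of 0.0186 in limma.

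Slc7a11 encodes the cystine and glutamate exchanger that feeds glutathione synthesis. Its signals were 8.18, 7.92 and 6.41 in wild type and 6.00, 6.03 and 5.40 in ACKR2-/- at 2 weeks, and 8.69, 8.33 and 8.09 in wild type and 7.98, 7.46 and 7.63 in ACKR2-/- at 10 weeks. The ACKR2-/- arrays lay below the wild type arrays without overlap at both weeks. Its rise from 2 to 10 weeks in ACKR2-/- was 1.88 ± 0.40, or 3.68-fold (limma, adjusted p 0.0147), and its differences between genotypes, -1.70 ± 0.40 at 2 weeks (adjusted p 0.225) and -0.69 ± 0.40 at 10 weeks (adjusted p 0.750), did not pass the test.

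Slc3a2 encodes CD98 heavy chain, the partner that brings both Slc7a11 and Slc7a5 to the cell surface. It was at 13.51, 13.42 and 12.12 in wild type and 12.13, 12.18 and 12.23 in ACKR2-/- at 2 weeks, and at 13.34, 13.09 and 13.16 against 13.26, 13.34 and 13.43 at 10 weeks. At 10 weeks the genotypes overlapped, and at 2 weeks wild type array 3 was the array below all ACKR2-/- arrays. The rise of Slc3a2 from 2 to 10 weeks in ACKR2-/- was 1.16 ± 0.29, or 2.24-fold (limma, adjusted p 0.0244). Slc38a2, a sodium-coupled carrier of neutral amino acids, varied little, with all arrays between 12.06 and 12.61 and a difference of 0.31 ± 0.14 in that comparison (adjusted p 0.157). Slc7a5 differed there by 0.83 ± 0.37 (adjusted p 0.159), so 2 of the 4 transporters passed.

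**Figure D2:**
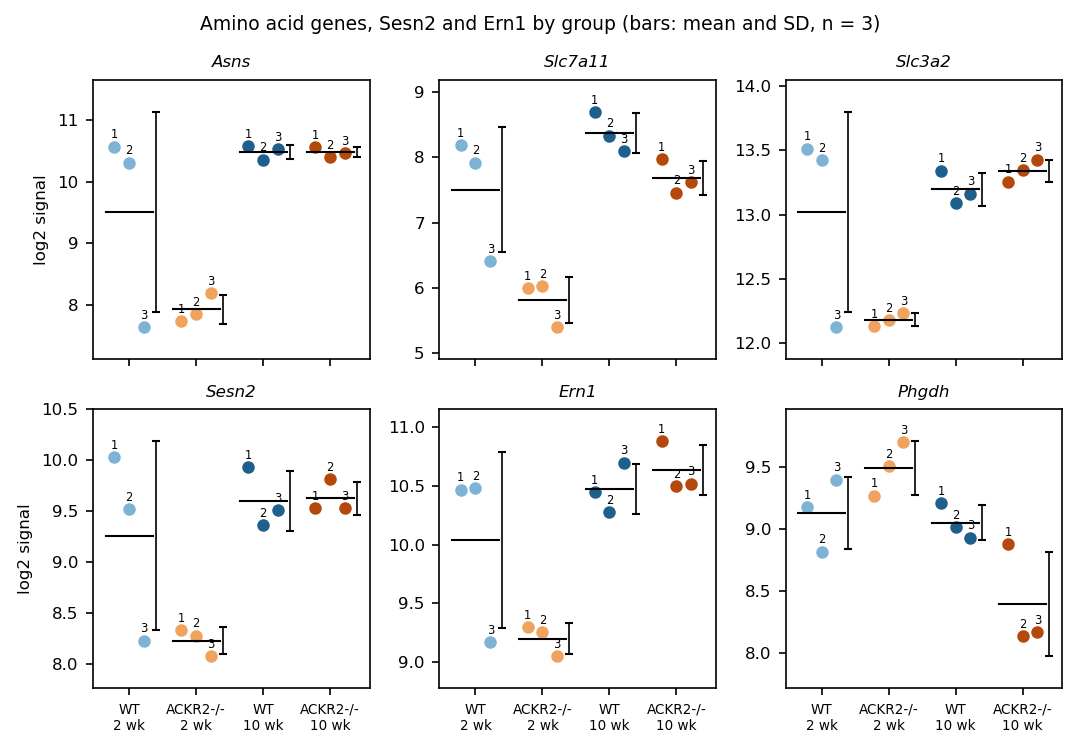
Log2 signal of Asns, Slc7a11, Slc3a2, Sesn2, Ern1 and Phgdh on each array, numbered by replicate, with the mean and SD of 3 arrays per group. In the first 5 genes, wild type array 3 of 2 weeks sits with or near the ACKR2-/- arrays of 2 weeks and not with arrays 1 and 2 of its group; Phgdh is lowest on ACKR2-/- arrays 2 and 3 of 10 weeks.

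Phgdh, the enzyme of the first step of serine synthesis, ran the other way. Its signals were 9.18, 8.82 and 9.40 in wild type and 9.27, 9.51 and 9.70 in ACKR2-/- at 2 weeks, and 9.21, 9.02 and 8.93 against 8.88, 8.14 and 8.17 at 10 weeks. It fell by 1.09 ± 0.22 between 2 and 10 weeks in ACKR2-/-, a 2.13-fold drop, and was the gene of the 38 with the lowest adjusted p in that comparison (limma, 0.0140). For the other enzymes no call was made on all arrays. Psat1 and Psph, which complete serine synthesis, Shmt2 and Mthfd2 of the mitochondrial folate pathway, and Aldh18a1, which starts proline synthesis, passed no test among the 5 comparisons. The widest of their differences in ACKR2-/- were 0.63 for Mthfd2 and 0.51 for Aldh18a1, both higher at 10 weeks.

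Sesn2 and Ern1 showed the pattern of Asns. Sesn2, a leucine-sensing inhibitor of mTORC1, was at 10.03, 9.52 and 8.23 in wild type and 8.34, 8.28 and 8.08 in ACKR2-/- at 2 weeks, and at 9.93, 9.37 and 9.51 against 9.53, 9.81 and 9.53 at 10 weeks. The sensor gene Ern1 was at 10.47, 10.48 and 9.17 and at 9.30, 9.25 and 9.05 at 2 weeks, and at 10.45, 10.28 and 10.70 and at 10.88, 10.50 and 10.52 at 10 weeks, wild type first. For both genes the genotypes overlapped at 10 weeks and the 4 arrays without mast cell transcripts were the lowest. From 2 to 10 weeks in ACKR2-/- Ern1 rose by 1.43 ± 0.30 (limma, adjusted p 0.0145) and Sesn2 by 1.39 ± 0.36 (adjusted p 0.0274).

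In that comparison, 10 against 2 weeks in ACKR2-/-, 8 of the 38 genes rose, which is 21.1%, against 10.5% of all genes, and 1 fell, which is 2.63%, against 6.33% of all genes. Of the 38, 37 lay above the median gene in mean signal, while the shares of all genes include those of low signal. The part of signal level in such shares was not tested. Beside Asns, Slc7a11, Slc3a2, Ern1 and Sesn2, the genes that rose were Ddit3 by 0.99 ± 0.22, Sel1l by 0.68 ± 0.18 and Herpud1 by 0.53 ± 0.14, with adjusted p of 0.0174, 0.0294 and 0.0293. Over all 38, 30 differences were above 0 and the median was 0.19, against 0.06 over all genes. Arrays of the earlier and later week did not overlap for 14 genes higher at 10 weeks, where 26.7% of all genes were so, and for 1 gene lower, where 17.7% were. Xbp1, the next in order, differed by 1.25 ± 0.45 (adjusted p 0.0824). The mast cell gene average was 6.59 to 6.74 in one group and 12.13 to 12.53 in the other, and the sex-linked genes differed as well, so culture time, cell content and sex cannot be told apart here. All 3 arrays of the earlier group are among the 4 that go against their labels, so no value without them can be given. Leaving out ACKR2-/- array 2 or array 3 of 10 weeks ended all 9 calls, with adjusted p between 0.0555 and 0.108, and 0% of all genes then passed. Leaving out array 1 or array 2 of the 2-week group left 4 calls, those of Ern1, Ddit3, Phgdh and Slc7a11. The share of all genes that passed in those fits is not given here, so these calls have no background to be read against.

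Atf4 and several genes around it had lower values on the ACKR2-/- arrays of 10 weeks, where all arrays carry mast cell transcripts, but no difference passed the test. Atf4 was at 10.18, 10.01 and 9.84 in wild type and 9.74, 9.69 and 9.75 in ACKR2-/- at 2 weeks, and at 10.13, 10.19 and 10.19 against 9.79, 9.77 and 9.87 at 10 weeks. Every ACKR2-/- array lay below the lowest wild type array of the same week. ATF4 output is set mainly by translation, which these arrays do not measure. The differences were -0.28 ± 0.10 at 2 weeks and -0.36 ± 0.10 at 10 weeks (limma, adjusted p 0.225 and 0.480).

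Atf3, a stress-induced transcription factor that is also induced by many other stimuli, was at 9.73, 9.90 and 8.41 in wild type and 8.16, 8.15 and 8.03 in ACKR2-/- at 2 weeks. At 10 weeks it was at 9.57, 10.13 and 9.57 in wild type and 9.17, 7.72 and 7.58 in ACKR2-/-. The arrays did not overlap at either week, but array 1 of the ACKR2-/- cells at 10 weeks lay nearer to wild type than to arrays 2 and 3. The difference at 10 weeks was -1.61 ± 0.45 (limma, adjusted p 0.488).

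Ppp1r15a encodes GADD34, which removes the phosphate from eIF2alpha. At 10 weeks it was at 11.71 and 11.95 on wild type arrays 1 and 3, higher still on array 2, and at 11.82, 10.67 and 10.82 in ACKR2-/-, so array 1 lay inside the wild type range and arrays 2 and 3 well below it. At 2 weeks it was at 11.47, 11.67 and 10.98 in wild type and at 10.61, 10.59 and 10.66 in ACKR2-/-, with no overlap. Slc7a5, the large neutral amino acid transporter, had the same shape at 10 weeks, at 12.49, 12.33 and 12.72 against 12.49, 11.49 and 11.40. Chac1, which degrades glutathione, was at 8.55, 8.92 and 9.15 against 8.88, 8.21 and 8.15. Ddit3 (CHOP), a transcription factor linked to stress-induced cell death, did not share it, at 10.54, 10.77 and 11.37 against 11.07, 10.63 and 10.67, and its genotypes overlapped. Trib3, a pseudokinase induced by ATF4 and CHOP, was highest on wild type array 3 of 10 weeks at 9.19 and between 7.79 and 8.75 on the other 11 arrays.

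**Figure D3:**
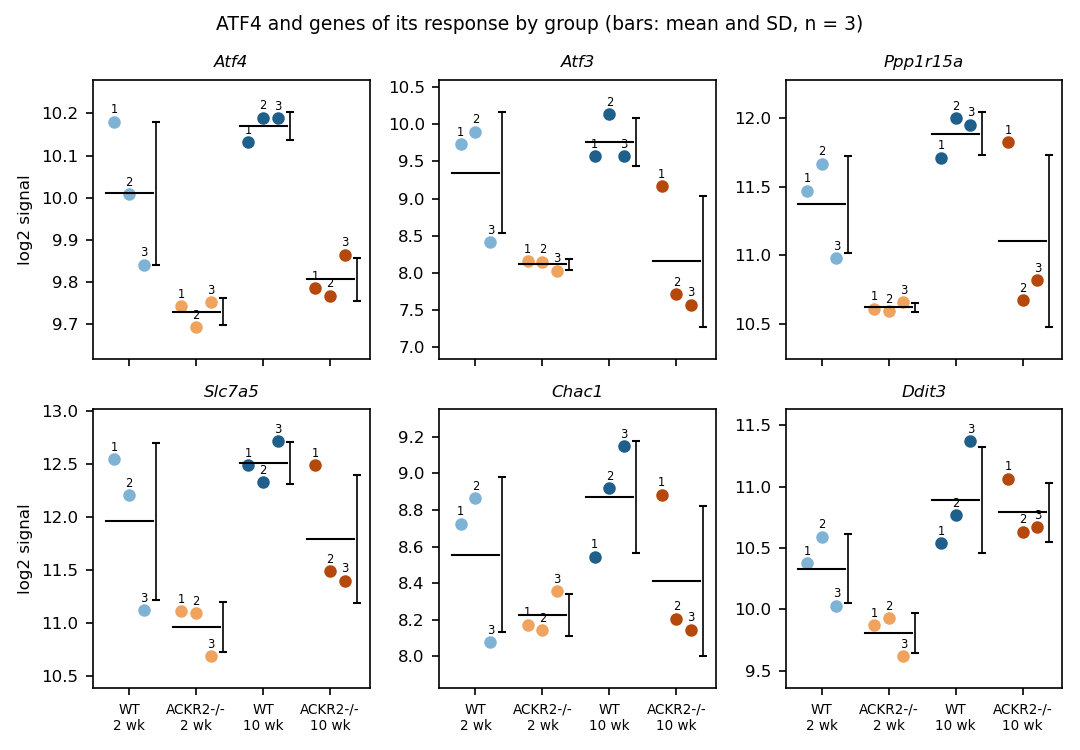
Log2 signal of Atf4, Atf3, Ppp1r15a, Slc7a5, Chac1 and Ddit3 on each array, numbered by replicate, with the mean and SD of 3 arrays per group. At 10 weeks Atf4 is lower on all 3 ACKR2-/- arrays, while for Atf3, Ppp1r15a, Slc7a5 and Chac1 arrays 2 and 3 are low and array 1 is at or near the wild type values.

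At 10 weeks no gene passed the test between genotypes, among the 38 or among all 19938 (0%). With unadjusted p under 0.05 there were 4 of the 38 and 1566 of all genes. The lowest p among the 38 belonged to Atf4, Atf3, Phgdh (-0.65 ± 0.22), Ppp1r15a (-0.78 ± 0.27) and Slc7a5 (-0.72 ± 0.37), with adjusted p of 0.480 to 0.692 in limma. Of the 38 differences, 18 were above 0 and 20 below, with a median of -0.01 against 0.01 over all genes. ACKR2-/- arrays lay below all wild type arrays for Atf4, Atf3, Phgdh and Slc7a11, where 5.98% of all genes did, and above them for Atf6, Dnajb9 and Sel1l, where 8.61% did. For the 38 these shares were 10.5% and 7.89%, close to the background.

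ACKR2-/- array 1 of 10 weeks stood nearer to the wild type mean of 10 weeks than to arrays 2 and 3 for 26 of the 38 genes (68.4%) and for 54.4% of all genes. In a fit of the 10-week arrays alone without it, 4 of the 38 genes were lower in ACKR2-/- (10.5%), where 2.04% of all genes were, and none was higher, where 0.502% were. These were Atf3 by -2.11 ± 0.21, Ppp1r15a by -1.14 ± 0.16, Slc7a5 by -1.07 ± 0.17 and Phgdh by -0.90 ± 0.15, with limma adjusted p of 0.00367, 0.0134, 0.0209 and 0.0283. That array was left out with its position known, so these values describe arrays 2 and 3 and are no independent support. Arrays 2 and 3 also had the lowest averages of 11 monocyte and macrophage genes, 7.25 to 7.51 against 9.05 to 10.41 on the other 4 arrays of 10 weeks, and of 12 neutrophil genes, 6.71 to 6.89 against 7.75 to 10.32. Mast cell genes went both ways on arrays 2 and 3. Mcpt4 was at 7.29 and 7.30, Hdc at 10.30 and 9.23 and Tpsb2 at 11.06 and 10.93. These, Cd200r3 and Gata2 were lower there than on the other 4 arrays of 10 weeks. Cma1, Fcer1a, Ms4a2 and Tph1 were higher there. The part of cell content in the 4 differences was not tested.

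**Figure D4:**
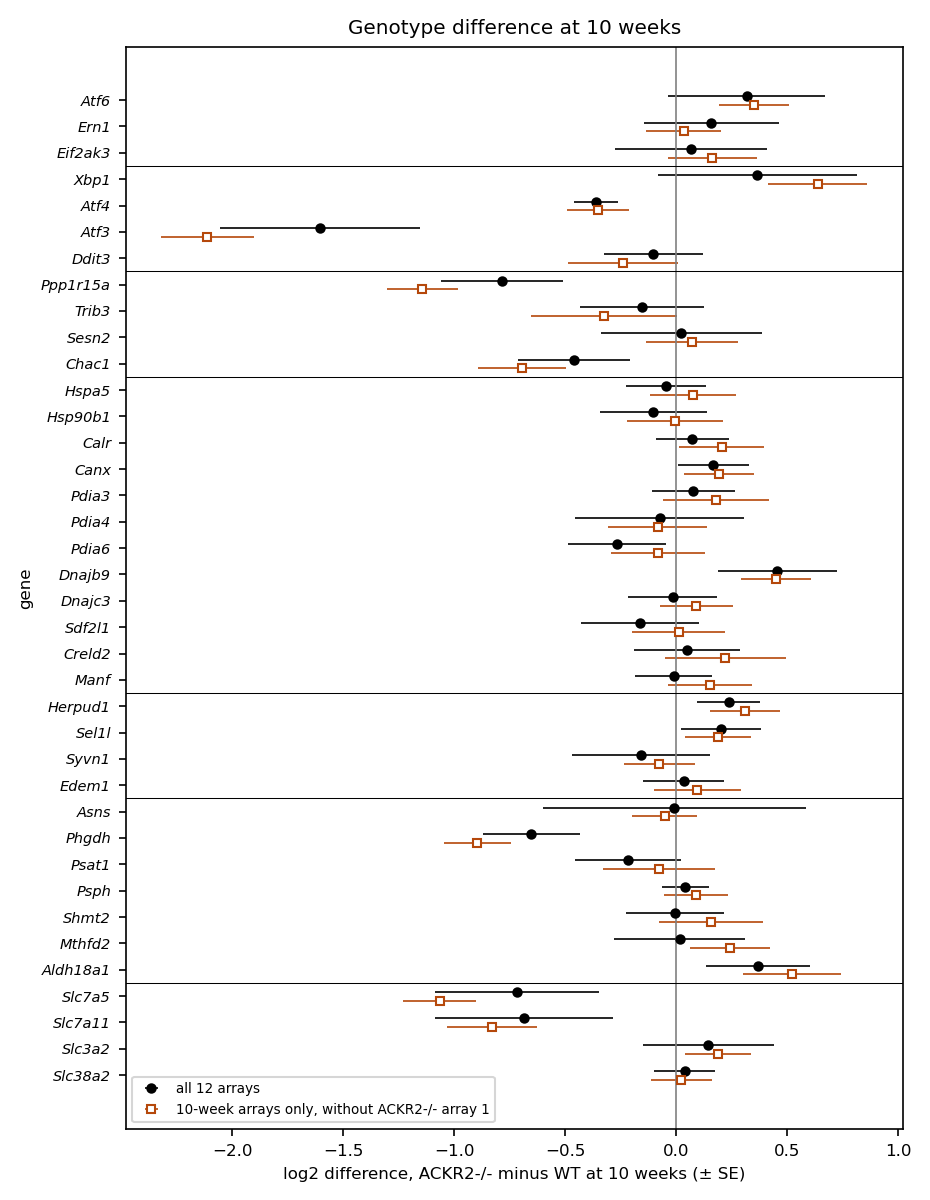
Log2 difference between ACKR2-/- and wild type at 10 weeks for the 38 genes, with limma standard errors, from all 12 arrays and from the 10-week arrays without ACKR2-/- array 1. Leaving out that array moves Atf3 from -1.61 to -2.11 and Ppp1r15a from -0.78 to -1.14.

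At 2 weeks no gene passed either, among the 38 or in all (0%), with 10 of the 38 and 3480 of all genes at unadjusted p under 0.05. The lowest p among the 38 belonged to Slc7a11, Slc3a2 (-0.84 ± 0.29), Atf4, Sesn2 (-1.03 ± 0.36) and Ern1 (-0.84 ± 0.30), each with an adjusted p of 0.225 in limma. The ACKR2-/- mean was lower for 32 of the 38, with a median difference of -0.24 against -0.02 over all genes. For Atf4, Atf3, Ddit3, Ppp1r15a, Psat1, Slc7a5 and Slc7a11, all ACKR2-/- arrays lay below all wild type arrays. That is 18.4% of the 38, where 8.60% of all genes did so, and none lay above, where 4.97% did. At both weeks the ACKR2-/- arrays were lower without overlap for 3 of the 38, Atf4, Atf3 and Slc7a11, and for 0.853% of all genes. The comparisons share no arrays, but same-numbered wild type arrays of both weeks deviated together, so they are not independent. The ACKR2-/- arrays of 2 weeks also lack mast cell transcripts and carry Y-linked signal, unlike most wild type arrays of that week. Genotype, cell content and sex cannot be told apart at 2 weeks.

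Without wild type array 3 of 2 weeks, and with the 2-week arrays alone, 15 of the 38 genes were lower in the arrays labelled ACKR2-/- (39.5%, against 14.7% of all genes) and none was higher (against 9.86%). They included 3 of 4 transcription factors (Atf3 at -1.70 ± 0.10, Atf4, Ddit3) and 3 of 4 feedback regulators (Ppp1r15a, Sesn2, Chac1). Of the 4 transporters, Slc7a11 (-2.24 ± 0.23), Slc3a2 (-1.29 ± 0.09) and Slc7a5 were among them. The rest were Asns (-2.51 ± 0.17), Psat1, Ern1 (-1.27 ± 0.11), Sel1l, Edem1 and, of the 12 chaperones, Sdf2l1 at -0.72. The lowest limma adjusted p was 0.000441, for Atf3. This fit sets 2 arrays with mast cell transcripts against 3 without, so genotype and cell content cannot be told apart in it.

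Wild type cells gave no call between 10 and 2 weeks, among the 38 or in all (0%), with 1 of the 38 and 1326 of all genes at unadjusted p under 0.05. The lowest p belonged to Ddit3, 0.56 ± 0.22 higher at 10 weeks (limma, adjusted p 0.726), followed by Slc7a11, Dnajb9 (-0.52 ± 0.27), Ppp1r15a and Trib3. Ppp1r15a was higher at 10 weeks without overlap, where 5.29% of all genes were, and Dnajb9 lower, where 3.45% were. Without wild type array 3 of 2 weeks, in a fit of the wild type arrays alone, again 0 of the 38 and 0% of all genes passed, and the lowest adjusted p among the 38 was 0.999. Asns, at 10.57 and 10.31 on the 2 remaining arrays of 2 weeks, overlapped with the arrays of 10 weeks.

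The change over time was also compared between genotypes, as the genotype by week interaction. No gene passed (0%), and 6 of the 38 and 2271 of all genes had an unadjusted p under 0.05, led by Phgdh at -1.02 ± 0.31 (limma, adjusted p 0.424). Without wild type array 3 of 2 weeks, 9 of the 38 passed (15.7% of all genes did), led by Asns at 2.50 ± 0.20, Sesn2 at 1.56 and Slc7a11 at 1.56. The interaction then includes the step between arrays without and with mast cell transcripts, which also differ in sex-linked genes. Genotype, cell content and sex cannot be told apart in it.

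Chaperones and foldases passed no test in any of the 5 comparisons with all arrays weighted equally, and their ACKR2-/- differences between 10 and 2 weeks lay between -0.21 and 0.29. Some passed in limma under other settings. Without ACKR2-/- array 1 of 10 weeks, in those groups alone, Sdf2l1 (0.44), Creld2 (0.37) and Manf (0.37) were higher at 10 weeks, with adjusted p of 0.0153 to 0.0419. In that fit 16.1% of all genes were higher. With array weights, Canx differed by -0.39 between genotypes at 2 weeks and by 0.40 between weeks in ACKR2-/- (adjusted p 0.00323 and 0.00133). Hsp90b1, Pdia4, Dnajb9 and Sdf2l1 were also lower in ACKR2-/- at 2 weeks, and Dnajc3 was higher, at 0.36. Of all genes, 23.8% were lower and 18.2% higher there, and 26.8% were higher between weeks in ACKR2-/-. Dnajb9 had an interaction of 1.03 (adjusted p 0.00339), where 21.9% of all genes were higher, and others passed in some comparisons. Hspa5 (BiP), the main chaperone of the compartment and the partner that holds the sensors inactive, was at 12.02, 11.61 and 11.86 in wild type and 11.74, 11.84 and 12.10 in ACKR2-/- at 2 weeks, and at 12.10, 11.60 and 11.63 against 11.49, 11.79 and 11.91 at 10 weeks. All 4 groups overlapped. Hsp90b1 (GRP94) spanned 11.78 to 12.56, the disulfide isomerase genes Pdia3 and Pdia6 spanned 11.35 to 12.16 and 10.08 to 11.07, and Manf spanned 9.45 to 10.09.

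Many chaperone promoters carry the ER stress element, to which cleaved ATF6 binds together with NF-Y. RefSeq promoter sequences of GRCm38.p6, from 250 bases before to 50 after the start, were found for 36 of the 39 listed genes, all but Atf6, Manf and Slc7a5. The letters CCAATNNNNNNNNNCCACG, searched on both strands, were in 7 of 11 chaperone promoters (63.6%), in 8 of the 36 (22.2%) and in 37 of 27025 genes (0.137%). The 8 were Calr, Canx, Creld2, Dnajc3, Hsp90b1, Hspa5, Pdia6 and Syvn1. The stretches printed here are from Hspa5, Pdia6 and Hsp90b1, which spanned 0.62, 0.99 and 0.79 over the arrays, and from Syvn1. With the same letters, Syvn1 spanned 1.59 and had 1 array far above the rest. Canx, Calr and Dnajc3, which are not printed, spanned 0.54, 0.55 and 0.67. They lie at chr2:34772000-34772069 (Hspa5, plus strand), chr12:17266469-17266538 (Pdia6, plus), chr10:86705505-86705574 (Hsp90b1, minus) and chr19:6046506-6046575 (Syvn1, plus), all upstream of the start. Each is written in the direction of its gene, and capitals mark the searched letters, which in Hsp90b1 are on the opposite strand. Hsp90b1 holds them again farther upstream, and in none of the 36 promoters did the motifs searched overlap each other.
Hspa5: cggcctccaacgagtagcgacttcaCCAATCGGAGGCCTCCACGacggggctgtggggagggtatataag
Pdia6: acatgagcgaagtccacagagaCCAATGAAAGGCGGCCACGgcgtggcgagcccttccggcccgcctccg
Hsp90b1: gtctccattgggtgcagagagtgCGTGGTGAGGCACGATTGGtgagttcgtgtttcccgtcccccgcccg
Syvn1: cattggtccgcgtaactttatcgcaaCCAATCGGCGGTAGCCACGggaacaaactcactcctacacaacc
A match is a description of the letters and no evidence of binding, and a promoter without one lacks only these letters in this window.

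**Figure D5:**
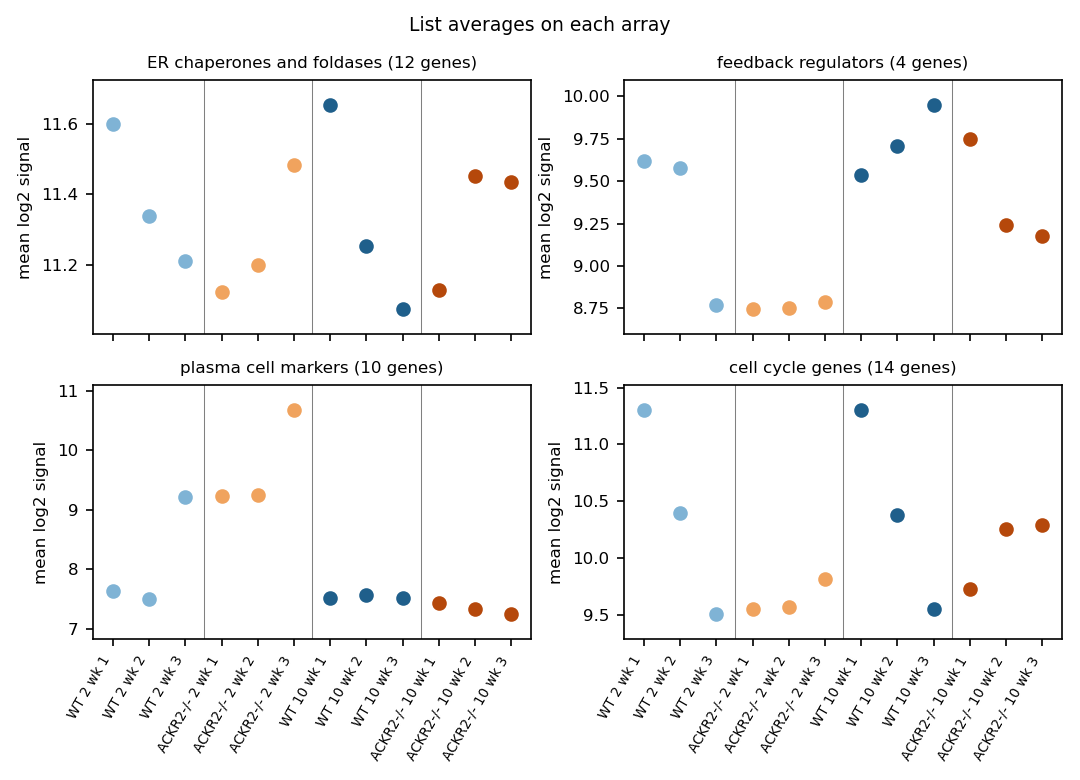
Average log2 signal on each array of the 12 chaperones and foldases, the 4 feedback regulators, 10 plasma cell genes and 14 cell cycle genes. The chaperone average is highest on wild type array 1 of 10 weeks at 11.65, where the cell cycle average is 11.31, and the plasma cell average is highest on ACKR2-/- array 3 of 2 weeks at 10.68.

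The chaperone average followed the array and not the group. It was 11.60, 11.34 and 11.21 in wild type and 11.12, 11.20 and 11.48 in ACKR2-/- at 2 weeks, and 11.65, 11.25 and 11.07 against 11.13, 11.45 and 11.43 at 10 weeks. Wild type array 1 of 10 weeks was the highest of all 12 arrays for 11 genes, Hspa5, Hsp90b1, Calr, Pdia3, Pdia6, Creld2, Manf, Asns, Psat1, Mthfd2 and Slc7a11, and for 8.64% of all genes. The average of 14 cell cycle genes was 11.30, 10.40 and 9.50 in wild type at 2 weeks, 11.31, 10.38 and 9.55 in wild type and 9.73, 10.26 and 10.29 in ACKR2-/- at 10 weeks. In wild type at both weeks, array 1 was thus the highest and array 3 the lowest in both averages, and in ACKR2-/- at 10 weeks array 1 was the lowest in both. The 4 feedback regulators ran the other way at 10 weeks, at 9.53, 9.71 and 9.95 in wild type and 9.75, 9.24 and 9.17 in ACKR2-/-. Wild type array 3 of 10 weeks was the highest of all arrays for Ddit3, Trib3, Chac1 and Slc7a5, and for 23.1% of all genes, a larger share than of the 38. The part of cell growth in these differences between arrays was not tested.

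Array 3 labelled ACKR2-/-, 2 weeks was the highest of all 12 arrays for 6 of the 38 genes, and 14.6% of all genes were highest on it, so the count is near the background. Atf6 was at 9.79, 9.81 and 11.38 on ACKR2-/- arrays 1 to 3 of 2 weeks, Eif2ak3 at 9.40, 9.50 and 10.92, and Syvn1, the ubiquitin ligase of the degradation pathway, at 10.04, 10.07 and 11.45. The others were Pdia4 at 12.19, Dnajb9, a BiP co-chaperone, at 12.32, and Phgdh at 9.70. Elsewhere Atf6 stayed between 9.79 and 10.42, Eif2ak3 between 9.23 and 9.82, and Syvn1 between 9.86 and 10.32. Pdia4 has a second probe set, which was also highest on this array, at 9.39 against 7.39 to 8.40 on the other 11. The same array was the lowest of all 12 for 8 genes, Ern1, Ddit3, Sesn2, Psph, Mthfd2, Aldh18a1, Slc7a5 and Slc7a11, and for 14.3% of all genes.

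On that array the average of 10 plasma cell genes was 10.68, against 9.21 to 9.25 on the other 3 arrays without mast cell transcripts and 7.24 to 7.64 on the remaining 8. Jchain was at 12.47, Mzb1 at 11.70, Irf4 at 11.93 and Pou2af1 at 12.76, and the B cell gene average was 12.81. Sdc1, a surface marker of plasma cells, was at 8.33 there and between 7.40 and 8.06 elsewhere. Not all of the list stood out, with Prdm1 at 8.55 and Tnfrsf17 at 7.61 on this array. Prdm1 was higher, at 8.80, on wild type array 3 of 2 weeks. Tnfrsf17 was at 7.19 to 7.28 on the other 3 arrays without mast cell transcripts. Derl3 and Txndc5 of the plasma cell list are themselves genes of protein folding and degradation. The part of these cells in the high values was not tested. Xbp1, which plasma cells need, was not highest there: it was at 12.05, 11.80 and 10.45 in wild type and 10.09, 10.28 and 11.29 in ACKR2-/- at 2 weeks, and at 11.78, 11.46 and 11.08 against 11.26, 12.21 and 11.95 at 10 weeks. The probe set gives 1 level for the gene and does not separate the spliced form.

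In the degradation pathway, Herpud1 and Sel1l, partners of the ligase Syvn1, rose from 2 to 10 weeks in ACKR2-/-. Herpud1 was at 10.74, 10.95 and 10.96 at 2 weeks and at 11.27, 11.47 and 11.50 at 10 weeks, and Sel1l at 10.29, 10.39 and 10.64 and at 11.14, 11.08 and 11.12. In wild type, both weeks overlapped for both genes, with Herpud1 at 11.21, 11.31 and 10.88 and at 11.37, 11.12 and 11.04, and Sel1l at 11.07, 11.01 and 10.35 and at 11.00, 10.77 and 10.97. With the replicate number as a block, both calls were lost, at adjusted p of 0.0515 and 0.0543. Syvn1 itself differed by -0.50 and Edem1, which directs misfolded glycoproteins to degradation, spanned 11.44 to 12.28.

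A second motif was searched in the same promoters. The C/EBP-ATF composite, TGATGNAA on either strand, to which ATF4 binds with C/EBP partners, was in 7 of the 36 promoters (19.4%), Asns, Atf3, Chac1, Herpud1, Pycr1, Slc7a11 and Trib3, and in 4.51% of 27025 genes. It was in 2 of 8 promoters of synthesis enzymes, 1 of 3 of transporters and none of 11 of chaperones, and the difference between these groups was not tested. It is shown for Asns, Slc7a11 and Atf3, the genes with the 3 widest spans over the arrays, for Chac1, a feedback regulator, and for Herpud1, which also holds the ER stress element II, a shorter form of the same element (12 of 27025 genes, 0.0444%). The stretches are chr6:7693210-7693269 (Asns, minus strand), chr3:50443634-50443703 (Slc7a11, minus), chr1:191183414-191183473 (Atf3, minus), chr2:119351022-119351081 (Chac1, plus) and chr8:94386304-94386398 (Herpud1, plus), upstream of the start and in the direction of the gene, with the searched letters of either strand in capitals.
Asns: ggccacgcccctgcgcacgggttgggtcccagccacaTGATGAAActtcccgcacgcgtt
Slc7a11: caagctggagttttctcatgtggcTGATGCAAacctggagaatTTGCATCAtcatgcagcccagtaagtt
Atf3: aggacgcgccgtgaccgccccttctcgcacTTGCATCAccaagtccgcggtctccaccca
Chac1: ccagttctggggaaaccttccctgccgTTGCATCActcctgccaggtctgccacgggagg
Herpud1: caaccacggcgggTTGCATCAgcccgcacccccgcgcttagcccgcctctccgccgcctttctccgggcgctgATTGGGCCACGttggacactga
Slc7a11 holds the composite in both orientations. In Herpud1 the composite lies farther from the start than the ER stress element II. A core of the unfolded protein response element, TGACGTG, was found in Hspa5 alone among the 36 and in 2.22% of all genes.

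Of 164 other measured genes of these pathways, in 9 lists, 37 were higher and 8 lower at 10 than at 2 weeks in ACKR2-/-, and none passed in the other 4 comparisons. Of all genes, 10.5% were higher and 6.33% lower, against which each list's count is to be read. Other folding factors gave 5 higher and 0 lower of 22, led by Cnpy2 at 1.18 ± 0.22 and Sil1, the nucleotide exchange factor of BiP, at 0.74 ± 0.14. The translocon, glycosylation and export list gave 5 and 0 of 24, led by Sec24d, a coat component of export vesicles, at 1.78 ± 0.38, with a list median of 0.53. Other degradation genes gave 3 and 1 of 17, led by Herpud2 at 0.63 ± 0.11. The median over all genes was 0.06.

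The same shares over all genes, 10.5% and 6.33%, stand beside the counts of the remaining lists. Other ATF4 and CHOP targets gave 6 higher and 0 lower of 18, led by Rit1 at 1.14 ± 0.21 and Nupr1, a stress-induced chromatin protein, at 1.53 ± 0.30. Other sensors and regulators gave 6 and 0 of 20, led by Bbc3 (PUMA), which promotes apoptosis, at 0.93 ± 0.17 and the oxidative stress factor Nfe2l2 (NRF2) at 0.81 ± 0.15. Amino acid and glutathione metabolism gave 4 and 2 of 17, led by Glul, glutamine synthetase, at 1.82 ± 0.32. Other amino acid transporters gave 6 and 4 of 16, led by Slc36a1, a lysosomal carrier, at 1.02 ± 0.16 and Slc7a7, a cationic amino acid exchanger, at -2.50 ± 0.52. Of 18 cytosolic tRNA synthetases, a class that ATF4 is known to induce, 1 was higher, Yars at 0.72 ± 0.20, and the list median was 0.00. Heat shock genes gave 1 and 1 of 12, Bag3 at 1.82 ± 0.35 and Hspa1a at -2.26 ± 0.63, where Hspa1a was at 11.22, 11.30 and 8.39 on the 2-week arrays and so differed between them. The limit given for the 8 genes that rose holds for all these lists, since the same arrays were compared.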

How the data were processed

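The values deposited by the authors are log2 signals of 35399 probe sets on 12 arrays. The submitters' processing notes name RMA and Partek 6.5. Background correction and quantile normalization in RMA can shrink differences of low signals. The genome build is not given in the sources used here, and no detection calls were used. The number of arrays limits the precision.

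A linear model of the 4 groups was used for all arrays (limma 3.58.1, R 4.3.3, 8 residual degrees of freedom), with 19938 genes and no filter on low values. P-values were Benjamini-Hochberg adjusted over all genes, with a threshold of 0.05. Tested on simulated data for 10 against 2 weeks in ACKR2-/-, over 19938 genes, the fit called 87% of 100 genes changed by a log2 of 2 and 97% of 100 changed by 4. The simulated noise was normal and independent, with the same spread for a gene on all arrays. It held no array that goes against its label, so these shares need not hold for the real arrays. Of the genes called in that comparison, only Asns, at 2.55, differed by more than 2. Errors are limma's SE or SD over arrays. The genes and lists were chosen with earlier results of these data known. All listed genes could be named by role, with values for the 5 lowest p where none passed and up to 2 genes per other list.

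Deviations of same-numbered wild type arrays of 2 and 10 weeks correlated at 0.166 to 0.359 over genes. In the other pairs of groups same-numbered arrays correlated at -0.308 to 0.062. The labels name no animal or culture, so a pairing by number is not established. Wild type array 3 had Xist at 5.77 at 2 weeks and at 13.11 at 10 weeks. Alternatives were the compared groups alone, array weights, a replicate block, median centring, a filter, other probe set rules and leaving out arrays. A planned count of protein end signals was not done. Promoters came from RefSeq (GRCm38.p6).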

Additional observations from a re-analysis of the deposited data

How the results depend on the processing

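Counts of the 38 genes past the threshold changed with the arrays used. Limma's gene-by-gene array weights gave wild type array 3 of 2 weeks the lowest weight, 0.118. With them the counts were 24 for genotype at 2 weeks, 12 for genotype at 10 weeks and 3 for week in wild type. They were 19 for week in ACKR2-/- and 17 for the interaction, and the cause was not tested. At 2 weeks 23 were lower (60.5%, against 23.8% of all genes) and 1 higher (against 18.2%). At 10 weeks 7 were lower (18.4%, against 11.2%) and 5 higher (13.2%, against 15.7%). For week in wild type 3 were lower (7.89%, against 4.79%) and 0 higher (against 3.92%). For week in ACKR2-/- 17 were higher (44.7%, against 26.8%) and 2 lower (against 17.9%). In the interaction 16 were higher (42.1%, against 21.9%) and 1 lower (background not given here). Leaving out 1 array at a time gave 0 to 13, 0 to 2, 0 to 0, 0 to 11 and 0 to 9 in the same order; wild type array 3 of 2 weeks gave the 13 and the 9, and ACKR2-/- array 1 of 10 weeks gave the 2. Fits of the compared groups alone gave 15 for genotype at 2 weeks without wild type array 3, 4 for genotype at 10 weeks without ACKR2-/- array 1, and 15 for week in ACKR2-/- without that array. In the last of these, 16.1% of all genes were higher and 9.95% lower, and the shares for the others are given above. With the replicate number as a block, the fit gave 0, 0, 0, 7 and 0, so only the calls of Herpud1 and Sel1l were lost. The share of all genes passing is not given here for that fit, nor for the fit of all groups without ACKR2-/- array 1 of 10 weeks. For the wild type arrays alone, a replicate block added after seeing the data gave 0 calls and a lowest adjusted p of 0.934. The compared groups alone, median centring, the filter, the mean of probe sets and all probe sets kept every count of called genes within 1.5 times. The differences of the called genes and of the 5 genes with the lowest p in each comparison kept their sign under all these settings. Smaller differences did not: for week in ACKR2-/-, Atf3 moved from 0.04 to -0.29 with array weights, and at 2 weeks Atf6 moved from 0.18 to -0.39. The median of the 38 for genotype at 10 weeks moved between -0.11 and 0.12, so it has no settled sign. Signal over background could not be examined.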
